A study of Mus musculus with 8 samples.

Results

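The 36 genes described here encode proteins of the lysosome and of autophagy, and they were taken by symbol from a list of such genes. The list was chosen with earlier results of these data known, the rise of Fam134b among them. All 36 were found among the 25010 genes measured by RNA-Seq in mouse liver, and all 36 were abundant enough to be tested. The list covers 24 lysosomal genes, which encode acid hydrolases, their cofactors, membrane proteins and a subunit of the proton pump, and 12 genes of autophagy and its control. Fam134b is the symbol in the deposited table for the gene now called Retreg1. RNA came from left liver lobes of 2 wild-type (WT) mice and 2 LXRDKO mice. The labels number the 2 libraries of a genotype as replicates without naming the animals, so P values measure the spread between these libraries. The strain background was given as C57BL/6 for both genotypes, the mice were 8 wk old and on standard chow, and food had been withheld for 4 to 6 h. LXRDKO mice lack both liver X receptors, LXRα (Nr1h3) and LXRβ (Nr1h2), in the whole body, so no difference can be assigned to loss of the receptors in one cell type of the liver. Sex and litter were not given in the sources used here.

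The libraries held between 55772659 and 72842744 reads on genes. Values are normalized counts, that is, reads on a gene divided by a size factor for the library. As a check of the labels, Nr1h3 had 5785 and 5322 normalized counts in WT against 1712 and 1826 in LXRDKO, and Nr1h2 had 2987 and 3110.0 against 925 and 1003. They stood at 0.319-fold and 0.316-fold of the WT level in LXRDKO livers (adjusted P = 0.0147 for each, limma). The 6 hepatocyte markers examined, Alb and Apoa1 among them, each had a mean of at least 25986 normalized counts.

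Lysosomes are acidic organelles in which hydrolases break down proteins, glycans and lipids delivered by endocytosis or by autophagy. In autophagy a membrane grows around cytoplasm or organelles, closes into an autophagosome and fuses with a lysosome. The liver has an active autophagy that responds to fasting, and both hepatocytes and the resident macrophages, called Kupffer cells, are rich in lysosomes. LXRs are sterol-activated nuclear receptors, and lysosomes are one of the places where cholesterol is set free from lipoproteins.

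Most of the 36 genes differed little between the genotypes. The median log2 fold change (LXRDKO against WT) was 0.02, beside −0.0046 over the 15578 genes tested, with 21 genes higher and 15 lower, where 49.1% of all genes were higher. Fam134b, which encodes a receptor for autophagy of the endoplasmic reticulum (ER-phagy), was 2.15-fold higher in LXRDKO livers. It was the member called at an adjusted P value of 0.05 (limma with Benjamini-Hochberg adjustment over all genes tested), where 0.135% of all genes were called up-regulated and 0.186% down-regulated. The rise of Fam134b was known when the list was chosen, so its call says nothing about the list. Lipa, which encodes lysosomal acid lipase, was 1.62-fold lower, and its adjusted P value was 0.127 in limma and 0.000588 in DESeq2. DESeq2, run on read counts recovered from the table, called Fam134b up-regulated and Lipa down-regulated and no other member, where it called 1.56% of all genes up-regulated and 2.03% down-regulated, 3.59% in all. The quasi-likelihood test of edgeR called Fam134b alone, where it called 0.315% of all genes in either direction. With 2 livers against 2, the smallest P value that a two-sided exact permutation test of 1 gene can give is 0.33, so these P values rest on a spread pooled across genes. In whole liver, fewer cells of a type and less RNA per cell cannot be told apart.

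**Figure D1:**
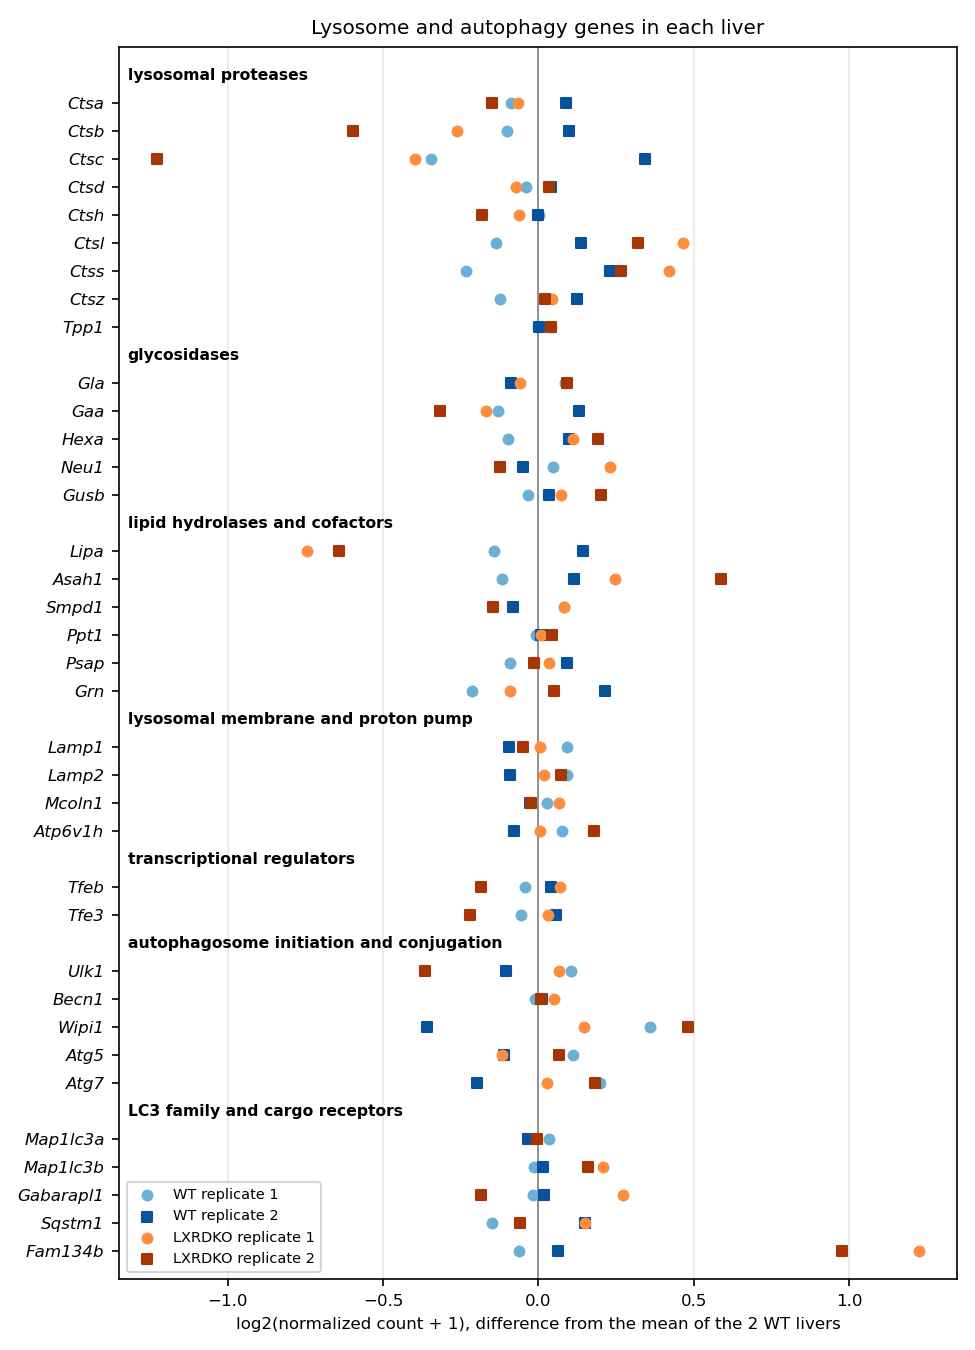
Log2(normalized count + 1) of each of the 36 genes in each of the 4 livers, as the difference from the mean of the 2 WT livers (horizontal axis), with genes in rows by role. Circles are replicate 1 and squares replicate 2 of each genotype. Both LXRDKO livers lie far right of the WT livers for Fam134b and left of them for Lipa. For 22 of the 36 genes the genotypes overlap, beside 8613 of the 15578 genes tested.

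Before adjustment, 5 members had a P value under 0.05 (limma), 3 of them higher and 2 lower, where 5.77% of all genes were higher and 7.50% lower at that level. The LXRDKO pair lay wholly above the WT pair for 9 members and wholly below it for 5. Over all genes tested, 21.7% lay wholly above and 23.0% wholly below. The median absolute log2 fold change was 0.07 over the members and 0.173 over all genes tested. The median absolute log2 difference between livers of the same genotype was 0.18 for WT and 0.15 for LXRDKO over the members, and 0.184 and 0.174 over all genes. The precision sets what could have been missed. The 95% confidence interval of the fold change lay within 2-fold in either direction for 33 of the 36 members, where 68.5% of all genes met that bound. The 3 members with a wider reach were Ctsc, Lipa and Fam134b. The interval lay within 1.5-fold for 28 members, beside 7136 of the 15578 genes tested. These comparisons were not matched for level. The median level was 3903 normalized counts over the members and 51.0 over all 25010 genes measured. The latter include genes too low to be tested, so 51.0 lies below the median of the 15578 genes compared here. Summed over the 24 lysosomal genes, the level was 296329 and 317155 normalized counts in WT against 305494 and 293693 in LXRDKO. The genotypes overlapped in this sum.

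**Figure D2:**
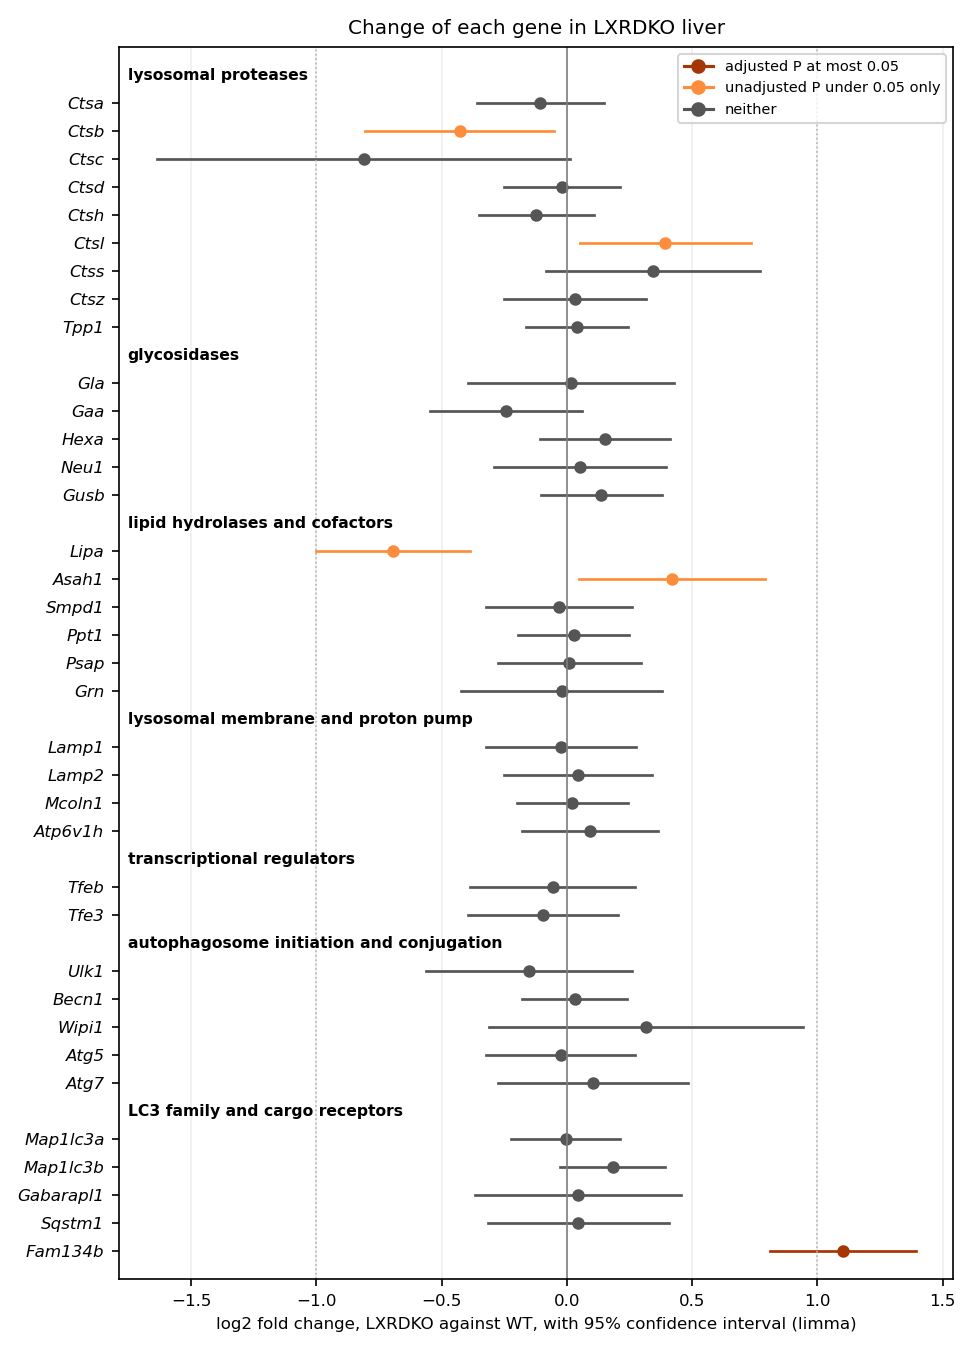
Log2 fold change of each of the 36 genes in LXRDKO against WT liver (points) with its 95% confidence interval from limma (bars), with dotted lines at a 2-fold change in either direction. The interval of Fam134b, from 0.81 to 1.39, is the one that lies farthest from 0, and 33 of the 36 intervals stay between the dotted lines.

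Tfeb and Tfe3 encode related transcription factors that bind the CLEAR element in the promoters of lysosome and autophagy genes, and they enter the nucleus when the kinase mTORC1 is inactive. Tfeb had 868 and 920.1 normalized counts in WT against 939 and 786 in LXRDKO. The values of the genotypes overlapped, and LXRDKO replicate 2 was the lowest of the 4 livers. Its log2 fold change was −0.06, with an interval from −0.39 to 0.27. Tfe3 had 1840 and 1987 normalized counts in WT against 1953 and 1641 in LXRDKO, again with LXRDKO replicate 2 lowest, and a log2 fold change of −0.09 (95% interval −0.40 to 0.21). Messenger RNA levels do not show where these factors were in the cell.

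The sequences that these factors are known to read were looked for in the promoters of the members. RefSeq promoter windows on GRCm38.p6, from 250 bases before to 50 bases after a start, were found for 30 members. Ctsb, Ctsh, Asah1, Atp6v1h, Becn1 and Map1lc3a had none in the table. Both strands were searched for TCACGTGA (the 8-letter core of the CLEAR consensus), for the full CLEAR consensus of 10 letters, in which a G precedes and a C follows that core, for CACGTG (the E-box within both) and for DR4, the repeat of AGGTCA with a spacer of 4 letters that is known as a binding site of LXR. The E-box stood in at least 1 window of 10 of the 30 members (33.3%) and of 8.09% of the 27025 genes with a window. The core stood in 4 members (13.3%), Ctsa, Ctsd, Gla and Mcoln1, and in 1.12% of all genes. The full consensus stood in none of the 30 and in 0.370% of all genes, and the DR4 letters stood in none of the 30 and in 0.0148% of all genes. Both are so rare that finding none in 30 members was likely beforehand. It does not show that the members lack sites for these factors. The study states that many working LXR sites differ from a perfect DR4. All these counts are matches of letters in a short window, and windows of 1 gene with several starts were counted together. Stretches of 30 bases are shown for the members with the core, for Lamp1, which had 4 E-boxes, and for Fam134b, the member that rose, with the core or the E-box in capitals:
Ctsa at chr2:164833749-164833778, plus strand: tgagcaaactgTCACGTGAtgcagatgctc
Ctsa at chr2:164833766-164833795, plus strand: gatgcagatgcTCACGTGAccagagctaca
Ctsd at chr7:142387908-142387937, minus strand: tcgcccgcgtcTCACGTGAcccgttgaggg
Gla at chrX:134601215-134601244, minus strand: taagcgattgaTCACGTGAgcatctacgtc
Gla at chrX:134601182-134601211, minus strand: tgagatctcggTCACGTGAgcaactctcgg
Mcoln1 at chr8:3500462-3500491, plus strand: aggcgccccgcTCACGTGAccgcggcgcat
Lamp1 at chr8:13159104-13159133, plus strand: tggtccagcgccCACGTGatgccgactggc
Fam134b at chr15:25942479-25942508, plus strand: aagggctgctgtCACGTGcagcagcattat
In Ctsa the E-boxes shown began 12 bases before and 6 bases after 1 of 2 annotated starts, the one inside the gene. The E-box began 98 bases before the start of transcription in Ctsd, 227 and 194 in Gla and 45 in Mcoln1 and in the Lamp1 stretch shown. In Fam134b it lay 188 bases before 1 of 4 annotated starts, an internal one. The 4 members with the core had log2 fold changes between −0.11 and 0.02. The 10 members with an E-box ranged from −0.24 in Gaa to 1.10 in Fam134b, with a median of −0.0013, beside 0.04 for the 20 members without one.

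The lysosomal membrane and pump genes differed little between the genotypes. Lamp1 and Lamp2 encode the heavily glycosylated proteins that line the lysosomal membrane, and Lamp2 also serves chaperone-mediated autophagy. Lamp1 had 45777 and 40216 normalized counts in WT against 43031 and 41422 in LXRDKO, so both LXRDKO values fell between the WT values. Its log2 fold change was −0.02 (95% interval −0.32 to 0.28). Lamp2 had 41850 and 36854 normalized counts in WT against 39737 and 41313 in LXRDKO, a log2 fold change of 0.04 (95% interval −0.25 to 0.34). Per kb of exon, Lamp1 was the highest of the 36 genes at a mean of 15930 normalized counts per kb, and Lamp2 had 4181. Atp6v1h encodes a regulatory subunit of the V-ATPase, the pump that acidifies the lysosome. It had 2850 and 2562 normalized counts in WT against 2711 and 3056 in LXRDKO, with overlap and a log2 fold change of 0.09 (95% interval −0.18 to 0.36). Mcoln1, which encodes a calcium-releasing channel of the lysosome, had a log2 fold change of 0.02. All 4 genes of this group overlapped between the genotypes, as did 8613 of the 15578 genes tested.

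The proteases did not move together. Of 9 genes, 4 were higher and 5 lower in LXRDKO livers, around a median of −0.02 on the log2 scale, and none was called by limma, DESeq2 or edgeR. The summed level of the 9 was 116961 and 134144 normalized counts in WT against 129488 and 117106 in LXRDKO. Cathepsin B and cathepsin L, both cysteine proteases and both abundant in these livers, lay on opposite sides. Ctsb had 31536 and 36206 normalized counts in WT against 28208 and 22355 in LXRDKO. The LXRDKO pair lay below the WT pair, and LXRDKO replicate 2 was the lowest. Its log2 fold change was −0.43 (standard error, SE, 0.15, adjusted P = 0.326, limma). Exons of Ctsb overlap those of Fdft1 on the other strand, which had a mean of 5516 normalized counts, and it was not stated whether reads were counted by strand.

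Ctsl had 27271 and 32987 normalized counts in WT against 41397 and 37482 in LXRDKO. The LXRDKO pair lay above the WT pair, by a log2 fold change of 0.39 (SE 0.14, adjusted P = 0.318, limma). Ctsc, which encodes the dipeptidyl peptidase that activates serine proteases of immune cells, had the lowest fold change of the set. It had 3389 and 5464 normalized counts in WT against 3270 and 1837 in LXRDKO. The livers of each genotype were far apart, and WT replicate 1 lay close to LXRDKO replicate 1. The log2 fold change of −0.81 had a standard error of 0.33 and an interval from −1.64 to 0.01 (adjusted P = 0.382, limma). With any 1 liver removed it ranged from −1.23 to −0.40. Ctsz, a carboxypeptidase and the highest protease per kb of exon (9817 normalized counts per kb), had 12805 and 15229 normalized counts in WT against 14384 and 14166 in LXRDKO, a log2 fold change of 0.03. The other 5, Ctsa, Ctsd, Ctsh, Ctss and Tpp1, had log2 fold changes between −0.12 and 0.34. Exons of Ctsa overlap those of Pltp and Neurl2 on the other strand. Ctss, typical of antigen-presenting cells, was at the upper end, with 1179 and 1626 normalized counts in WT against 1853 and 1665 in LXRDKO.

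**Figure D3:**
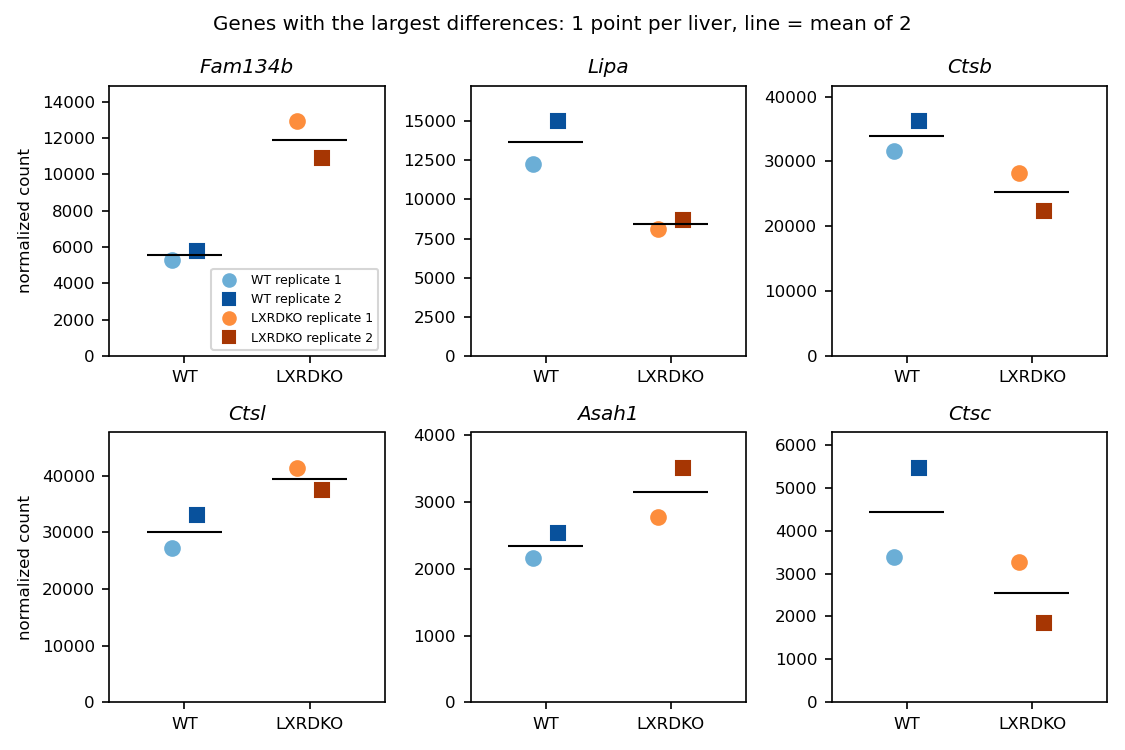
Normalized counts (vertical axis, from 0) of 6 genes in the WT and LXRDKO livers, with 1 point per liver and a line at the mean of each genotype. Fam134b is separated by more than the gap between livers of 1 genotype, Lipa likewise in the other direction, and the nearest livers of the 2 genotypes almost touch for Ctsc, at 3389 and 3270.

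Among the genes of lipid breakdown, Lipa stood apart. Lysosomal acid lipase splits the cholesteryl esters and triglycerides of lipoproteins taken up by the cell. Lipa, on chromosome 19 from 34492318 to 34527474 of GRCm38, had 12283 and 14992 normalized counts in WT against 8098 and 8692 in LXRDKO. The LXRDKO values lay close together and below both WT values. The log2 fold change was −0.69 (SE 0.12, adjusted P = 0.127 by limma and 0.000588 by DESeq2). As a ratio of LXRDKO to WT this was 0.618, with a 95% interval from 0.499 to 0.765. The log2 fold change ranged from −0.84 without WT replicate 1, where the limma adjusted P value was 0.0305, to −0.55 without WT replicate 2, where it was 0.118, and the adjusted P value was 0.361 with either of the LXRDKO livers left out. No other annotated exon overlaps Lipa. Asah1 encodes acid ceramidase, which cuts ceramide into sphingosine and a fatty acid. It had 2155 and 2529 normalized counts in WT against 2772 and 3513 in LXRDKO, higher in both LXRDKO livers, with a log2 fold change of 0.42 (SE 0.15, adjusted P = 0.328, limma).

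The cofactor and growth factor genes of the same group did not separate the genotypes. Psap encodes the precursor of the saposins, small proteins that present sphingolipids to their hydrolases. It had 31862 and 36149 normalized counts in WT against 34714 and 33633 in LXRDKO, a log2 fold change of 0.0098 (95% interval −0.28 to 0.30). Grn encodes progranulin, a secreted protein that is cut into granulins in the lysosome. It had 16468 and 22139 normalized counts in WT against 17937 and 19766 in LXRDKO, and both LXRDKO values fell between the WT values. The 2 remaining genes, Smpd1 for acid sphingomyelinase and Ppt1 for the thioesterase that removes palmitate from proteins, had log2 fold changes of −0.03 and 0.03. Exons of Ppt1 overlap those of Cap1 on the other strand, whose mean of 4816 normalized counts was above that of Ppt1, at 1973.

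The 5 glycosidase genes had log2 fold changes between −0.24 and 0.15, and none had an unadjusted P value under 0.05. Gaa encodes the acid glucosidase that degrades glycogen in lysosomes. It had 8370 and 10038 normalized counts in WT against 8149 and 7354 in LXRDKO, below both WT livers by a log2 fold change of −0.24 (95% interval −0.55 to 0.06). Hexa encodes the α subunit of β-hexosaminidase, which removes the terminal sugar of GM2 ganglioside. It had 3063 and 3507 normalized counts in WT against 3539 and 3743 in LXRDKO, with a log2 fold change of 0.15 (95% interval −0.11 to 0.41). Gla, Neu1 and Gusb, for α-galactosidase, sialidase and β-glucuronidase, had log2 fold changes of 0.02, 0.05 and 0.14. Gla was the lowest member per kb of exon, at 88.5 normalized counts per kb.

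The genes that start an autophagosome and extend its membrane overlapped between the genotypes in all 5 cases. Of the 15578 genes tested, 8613 did. Ulk1, the kinase that starts autophagy, had 10531 and 9120 normalized counts in WT against 10253 and 7604 in LXRDKO, a log2 fold change of −0.15 (95% interval −0.56 to 0.26). Wipi1 encodes a protein that binds the phosphoinositide of the growing membrane. It varied more between WT livers than the other 11 autophagy members, with 2191 and 1330.1 normalized counts in WT against 1892 and 2386 in LXRDKO. Its log2 fold change of 0.32 turned to −0.04 without WT replicate 2, the liver with the low value. Atg5, part of the complex that attaches LC3 to lipid, had 3014 and 2582 normalized counts in WT against 2574 and 2919 in LXRDKO, a log2 fold change of −0.03 (95% interval −0.32 to 0.27). Becn1, of the lipid kinase complex, and Atg7, the activating enzyme of the conjugation, had log2 fold changes of 0.03 and 0.10.

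LC3-family proteins are attached to the autophagosome membrane, and cargo receptors link them to what is to be degraded. Gabarapl1 had 23529 and 24101 normalized counts in WT against 28780 and 20954 in LXRDKO. The LXRDKO livers lay on either side of the WT livers, and the log2 fold change was 0.04 (95% interval −0.37 to 0.46). Map1lc3b had 3507 and 3583 normalized counts in WT against 4092 and 3961 in LXRDKO, higher in both LXRDKO livers by a log2 fold change of 0.18 (95% interval −0.03 to 0.39, adjusted P = 0.426, limma). Exons of Map1lc3b overlap those of Zcchc14 on the other strand, which at a mean of 4097 normalized counts was the more abundant of the pair. Map1lc3a had a log2 fold change of −0.0055. Sqstm1 encodes p62, a receptor for ubiquitinated cargo. It had 23149 and 28524 normalized counts in WT against 28525 and 24658 in LXRDKO, a log2 fold change of 0.05 (95% interval −0.32 to 0.41).

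Fam134b encodes a protein of the ER membrane that bends the membrane and binds LC3, so that pieces of the ER enter autophagosomes. The gene lies on chromosome 15 from 25843180 to 25973687 of GRCm38, and no other annotated exon overlaps it. It had 5299 and 5773 normalized counts in WT against 12934 and 10892 in LXRDKO. The WT livers lay close together, and the lower LXRDKO liver was still far above the higher WT liver. The log2 fold change was 1.10 (SE 0.12, 95% interval 0.81 to 1.39, adjusted P = 0.0434 by limma, 0.0491 by edgeR and 1.45e-10 by DESeq2). By P value it ranked 41 of the 15578 genes tested, among 50 called. With any 1 liver removed its log2 fold change ranged from 0.98 to 1.23. The limma call rested on a narrow margin. It was lost with upper-quartile scaling (adjusted P = 0.0511), with TMM scaling (0.0518), without the filter (0.0525), with the stricter filter (0.057), without the variance trend (0.223) and without LXRDKO replicate 1 (0.179) or LXRDKO replicate 2 (0.132).

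Values of the other ER-phagy receptors were set beside Fam134b, and these 8 genes were singled out after its value was seen. Retreg2 and Retreg3, its paralogs, had log2 fold changes of −0.13 (95% interval −0.39 to 0.13) and −0.09 (95% interval −0.34 to 0.15). The other 6 were Sec62, Rtn3, Ccpg1, Tex264, Atl3 and Calcoco1. Over the 8, log2 fold changes ranged from −0.13 to 0.17, of which the upper end was Ccpg1, and none had an unadjusted P value under 0.05. Whether the change of Fam134b differed from theirs was not tested.

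A wider list of 157 other lysosome and autophagy genes was drawn up by role, of which 156 were abundant enough to be tested. Limma and edgeR called none of them, and DESeq2 called 3, where it called 3.59% of all genes. The median log2 fold change was −0.02, with 69 genes higher and 87 lower. At an unadjusted P value under 0.05, 7 were higher and 16 lower (limma), where 5.77% and 7.50% of all genes were. The LXRDKO pair lay above the WT pair for 30 genes and below it for 47, beside 21.7% and 23.0% of all genes. Arsa encodes arylsulfatase A, which removes the sulfate of sulfatide. It had 6326 and 7280 normalized counts in WT against 4029 and 3469 in LXRDKO, a log2 fold change of −0.86 (SE 0.12, adjusted P = 0.0818 by limma and 7.94e-06 by DESeq2). Galns, for a sulfatase of keratan sulfate, had 467 and 584 normalized counts in WT against 938 and 816 in LXRDKO, a log2 fold change of 0.74 (adjusted P = 0.157 by limma and 0.0136 by DESeq2). Sesn2, a stress-induced inhibitor of mTORC1 signalling, had 643 and 608 normalized counts in WT against 865 and 1176 in LXRDKO, a log2 fold change of 0.69 (adjusted P = 0.205 by limma and 0.0286 by DESeq2). For each of the 3 genes the genotypes did not overlap, which their DESeq2 calls already made likely, so it adds no support.

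Of 18 other V-ATPase subunit genes, 14 were higher in LXRDKO livers, where 49.1% of all genes were, with a median log2 fold change of 0.07. The 2 subunits with the largest changes, Atp6v0d2 and Atp6v0e2, had 1.11 and 0.62 and adjusted P values of 0.463 and 0.464 (limma). Of 22 genes of the MiT/TFE family and nutrient sensing, the LXRDKO pair lay below the WT pair for 10, where 23.0% of all genes did, and the median was −0.09. Named after their values were seen, Mtor (−0.40) and Fnip1, Fnip2 and Flcn (−0.41, −0.56 and −0.45), which encode the mTORC1 kinase and the folliculin complex, were 4 of these 10 (adjusted P = 0.292, 0.163, 0.252 and 0.370, limma). The medians were −0.05 for 32 other core autophagy genes, −0.0066 for 20 other LC3-family and receptor genes, −0.08 for 13 genes of enzyme delivery, −0.02 for 20 membrane and transport genes and −0.02 for 31 other hydrolases and activators. The LXRDKO pair lay wholly below WT for 6 of the delivery genes and wholly above for 2. The same counts were 12 and 7 for the other hydrolases and activators, and 9 and 4 for the other core autophagy genes. They were 4 and 2 for LC3-family and receptor genes and 4 and 5 for membrane and transport genes. V-ATPase subunits had 2 and 7, and the MiT/TFE and nutrient-sensing genes 10 and 3. Npc1 and Npc2, also named after their values were seen, encode the proteins that export the cholesterol that the lipase sets free. Npc1 had 16647 and 16936 normalized counts in WT against 13107 and 13091 in LXRDKO, lower in both LXRDKO livers by a log2 fold change of −0.36 (SE 0.09, adjusted P = 0.203, limma). Npc2 had a log2 fold change of −0.01.

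**Figure D4:**
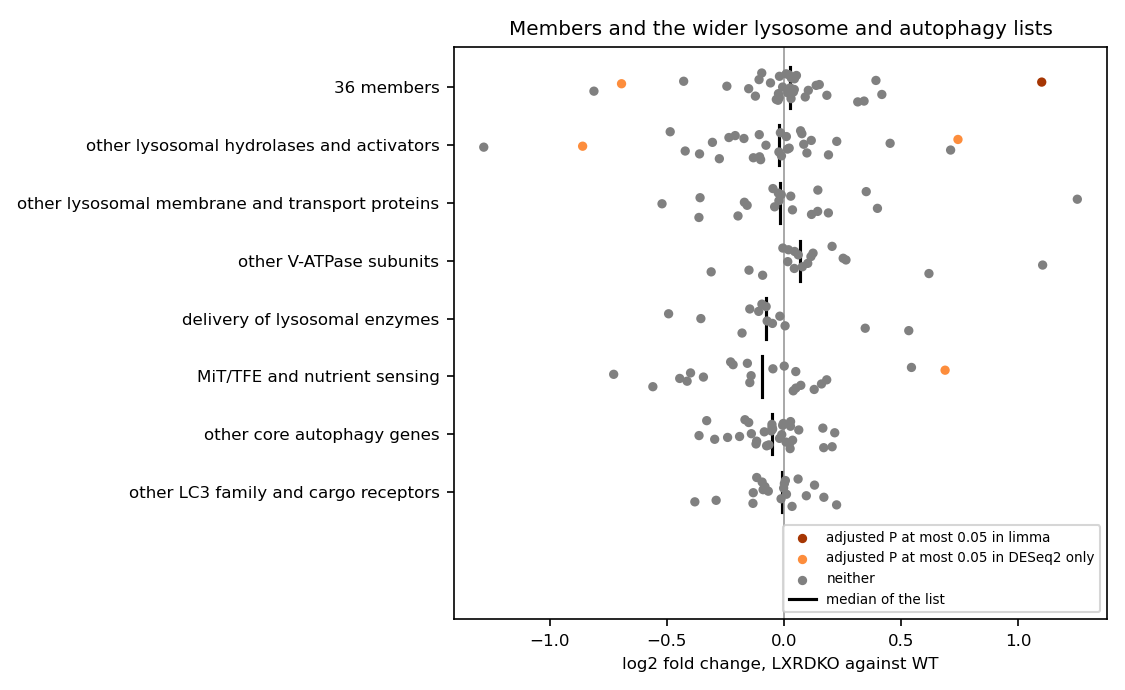
Log2 fold change in LXRDKO against WT liver (horizontal axis) of the 36 members and of the 156 tested genes of the wider lists, with 1 point per gene and a black line at the median of each list. Colour marks genes past an adjusted P value of 0.05 in limma or in DESeq2 alone, and all medians lie between −0.09 and 0.07.

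Lysosomal genes are expressed by macrophages as well as by hepatocytes. All 7 Kupffer cell markers were lower in LXRDKO livers, 6 of them without overlap, where 23.0% of all genes tested lay wholly below. Their summed level was 8725 and 9313 normalized counts in WT against 1257 and 739 in LXRDKO, and Timd4 had no read in LXRDKO replicate 2, where up to 3 reads are allowed by counting error. The 8 general macrophage markers summed to 11767 and 12956 in WT and to 15002 and 9530 in LXRDKO, on either side of WT, with 4 markers higher and 4 lower. Of the 9 markers of lipid-associated or monocyte-derived macrophages, 6 were higher in both LXRDKO livers, where 21.7% of all genes tested were. Gpnmb was 35.0-fold higher (adjusted P = 0.0239 by limma and 1.45e-45 by DESeq2). Cx3cr1 and Trem2 were 4.21-fold and 4.10-fold higher (adjusted P = 0.0103 and 0.0334 by DESeq2, 0.233 and 0.235 by limma). Spp1, Itgax and Ccr2 were 1.94-fold, 2.56-fold and 2.02-fold higher and were called by neither test. Lpl and Fabp5 were lower in both LXRDKO livers, 5.58-fold and 6.49-fold (adjusted P = 0.00204 and 0.00654 by DESeq2, 0.111 and 0.127 by limma). Cd9 overlapped, with a mean 1.36-fold lower. The list summed to 4205 and 10071 in WT and to 6223 and 6706 in LXRDKO. The part of macrophages in the values of Lipa, Ctsb, Ctsc and Ctss was not tested.

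Some marker lists of other cell types also differed between the genotypes. All 7 stellate cell markers were higher, with sums of 12307 and 15695 normalized counts in WT against 17940 and 20818 in LXRDKO. Of the 7, 4 lay wholly above WT and 3 overlapped, where 21.7% of all genes tested lay wholly above. Limma called none of them. DESeq2 called 2, Reln and Dcn, where it called 1.56% of all genes up-regulated. All 5 biliary markers were higher in both LXRDKO livers, where 21.7% of all genes tested were. Spp1 is on this list and on that of lipid-associated or monocyte-derived macrophages. Of 7 sinusoidal endothelial markers, 6 were lower, 4 of them without overlap, where 23.0% of all genes lay wholly below. Kdr was the endothelial marker called (adjusted P = 0.0498 by limma and 4.00e-09 by DESeq2). All 6 lymphocyte markers were lower, with sums of 188 and 261 in WT and 109 and 77.2 in LXRDKO. Their means lay between 17.2 and 39.5 normalized counts, and none was called by limma, DESeq2 or edgeR. The 5 neutrophil markers, of which 2 were abundant enough to be tested, overlapped in their sums, at 99.2 and 119 in WT and 139.5 and 91.1 in LXRDKO. Across the 6 hepatocyte markers the median was −0.06 on the log2 scale, but 1 marker stood apart. Hnf4a had 44148 and 38999 normalized counts in WT against 70769 and 56007 in LXRDKO. It was higher by a log2 fold change of 0.60 (adjusted P = 0.0115 by DESeq2 and 0.224 by limma). Among the other hepatocyte markers, Ttr lay below WT in both LXRDKO livers (−0.07), and 4 overlapped. The part of these cell types in the member values was not tested.

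**Figure D5:**
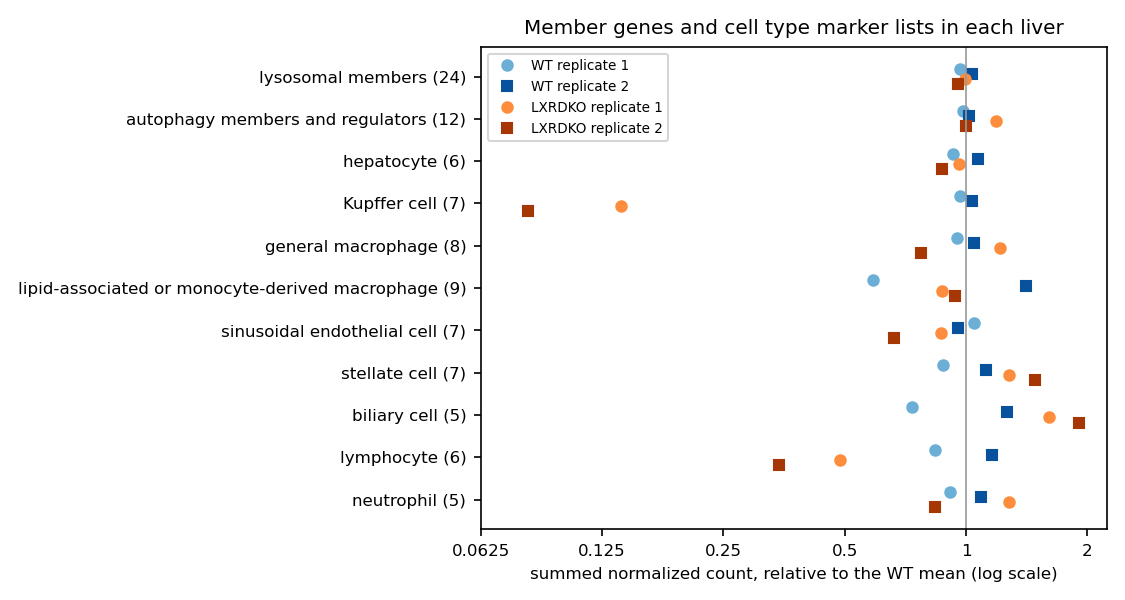
Summed normalized counts of the lysosomal members, the autophagy members and each cell type marker list in each liver, relative to the mean of the 2 WT livers (horizontal axis, log scale), with the number of genes in parentheses. The lysosomal sums of all 4 livers lie near 1, and the Kupffer cell sums of both LXRDKO livers lie far below it.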

How the data were processed

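RNA-Seq was analysed for 4 livers; chromatin accessibility was not analysed here. Per the labels and the study's methods, the authors captured polyadenylated RNA with a stranded kit, aligned single-end reads to mm10 with STAR 2.6.0c and normalized with DESeq2. The deposited values are a signal, read counts divided by 1 size factor per library; the read counter and annotation were not given in the sources used here. All values (100%) were whole multiples of 1 read within 0.01 reads, so read counts were recovered. Log2(normalized count + 1) was tested with limma 3.58.1 (R 4.3.3), with a variance trend, for the 15578 genes that averaged 10 normalized counts or more, and P values were adjusted over all of them (threshold 0.05). Fold changes on this scale understate those of low genes. Standard errors and 95% intervals are those of limma and are not adjusted. DESeq2 1.42.0 and edgeR 4.0.16 were run on recovered reads. The code was tested on simulated data.

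Positions and exon lengths are from GENCODE M21 (GRCm38, the assembly of mm10), to which 24987 gene identifiers matched. Levels per kb use all annotated exons of a gene. Promoter windows are from RefSeq (GRCm38.p6). The members and lists were chosen with earlier results of these data known, the rise of Fam134b among them, so no list was tested as a set. Values in each liver are given for 22 members that were called, had an unadjusted P value under 0.05, or had one of the 2 largest changes or the 2 highest levels per kb of their role group. The alternatives were other pseudocounts (0.5 and 8), filters (none, or a mean of 50), scalings (upper quartile, library total, TMM), limma without trend or with robust moderation, the replicate number as a block, and leaving out each liver. The labels do not say whether replicate numbers pair the mice. The correlation of replicate deviations between genotypes was 0.0031 across genes. It rests on a single difference per genotype, so it cannot exclude a pairing.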

Additional observations from a re-analysis of the deposited data

How the results depend on the processing

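Of 576 values (36 fold changes under 16 alternatives each), 532 kept their sign and their side of the threshold. Fam134b kept its sign under all 16 and its call under 9. Lipa kept its sign under all 16 and was called under DESeq2 and without WT replicate 1. The number of members called was 0 without a filter, with a minimum mean of 50, with upper-quartile or TMM scaling and without the variance trend, 2 with DESeq2, and 0 to 2 when each liver was left out. Over all genes, the 50 calls became 25 with the minimum of 50, 1 without the trend, 567 with DESeq2, 90 with the replicate block and 2 to 265 when each liver was left out, with 2 without LXRDKO replicate 1, 4 without LXRDKO replicate 2, 157 without WT replicate 2 and 265 without WT replicate 1. The labels do not say that mice with the same replicate number were paired. With that number as a block, the adjusted P value of Fam134b was 0.047 (limma) and no other member was called. DESeq2 called 3 genes of the wider list, and leaving out a liver gave 0 to 2 (Arsa without WT replicate 1, Atp6v0d2 and Igf2r without WT replicate 2). The cause of these changes was not tested. A fit without 1 liver leaves its genotype with a lone liver, which is assumed to vary like the others. Counts of calls from such fits are therefore not comparable with those of the main fit.

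Scaling by library total moved the median of all genes from −0.0046 to 0.05 and that of the members from 0.02 to 0.078. It turned the sign of Ctsd (0.036), Smpd1 (0.022), Grn (0.034), Lamp1 (0.031), Atg5 (0.029) and Map1lc3a (0.049), and edgeR that of Map1lc3a (0.00301). Leaving out each liver turned the sign of 19 members, whose log2 fold changes had these ranges: Ctsd (−0.072 to 0.034), Ctsz (−0.093 to 0.16), Gla (−0.0704 to 0.10), Neu1 (−0.12 to 0.23), Smpd1 (−0.15 to 0.081), Psap (−0.081 to 0.10), Grn (−0.23 to 0.19), Lamp1 (−0.12 to 0.0701), Lamp2 (−0.047 to 0.14), Mcoln1 (−0.025 to 0.066), Tfeb (−0.19 to 0.071), Tfe3 (−0.22 to 0.031), Ulk1 (−0.37 to 0.065), Wipi1 (−0.044 to 0.68), Atg5 (−0.14 to 0.086), Atg7 (−0.094 to 0.30), Map1lc3a (−0.0402 to 0.029), Gabarapl1 (−0.18 to 0.27), Sqstm1 (−0.10 to 0.20). None of these 19 was called under any alternative. With 2 livers per genotype, the 95% intervals give the sizes of change that these data leave possible.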
